A study of Macaca mulatta with 10 samples.

Results

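The pulvinar was represented by 2 of the 10 arrays of this series, those whose titles name the Pulvinar as replicate 1 and replicate 2. They were set against the arrays of 4 other nuclei of the dorsal thalamus, Anterior Thalamus, Centre Median, Medial Thalamus and Ventral Thalamus, with 2 arrays of each. All tissue came from untreated adult rhesus monkeys (Macaca mulatta), taken as micro-punches of 1 nucleus at a time, and biotin-labelled total RNA of each was read on 1 Affymetrix array whose probes were designed for human transcripts. The labels give no animal, age in years, sex, Pulvinar subdivision or number of punches per array. Because the 2 arrays of a nucleus are not stated to come from separate animals, the p-values below measure only the spread between these arrays, and the small number of arrays limits the precision of every value.

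The pulvinar is the large posterior nucleus of the primate thalamus. It exchanges signals with visual and association areas of the cortex, and much of its driving input comes from the cortex itself, so that it is classed as a higher-order nucleus, whereas ventral nuclei carry first-order sensory and motor signals. The study asked which genes are particular to single nuclei. For Pulvinar that question was addressed here within each replicate number, as the log2 level on the Pulvinar array minus the mean of the 4 other arrays with the same number. A log2 level is log2(intensity + 1), and where 2 levels or differences are given for a nucleus the first belongs to replicate 1 and the second to replicate 2.

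The replicate sets differed from each other before any nucleus was compared. Median intensities were 94.2 to 100.6 on all 10 arrays, but the lowest intensity was 11.97 to 12.3 in replicate 1 and 9.485 to 9.548 in replicate 2. XIST, the RNA that coats an inactive X chromosome in female cells, had log2 levels of 9.60 and 10.29 in Pulvinar, against 7.22 and 10.06 in Anterior Thalamus, 8.96 and 9.86 in Centre Median, 6.70 and 10.34 in Medial Thalamus and 6.86 and 10.34 in Ventral Thalamus. RPS4Y1, a ribosomal protein gene of the Y chromosome, had levels of 7.22 and 7.23 in Pulvinar, against 8.20 and 7.12 in Anterior Thalamus, 7.65 and 7.15 in Centre Median, 8.16 and 7.04 in Medial Thalamus and 8.94 and 6.96 in Ventral Thalamus. Within replicate 1, therefore, XIST was higher and RPS4Y1 lower in Pulvinar and Centre Median than in the other 3 nuclei, while all 5 arrays of replicate 2 were high for XIST. The 3' minus 5' difference of the actin control, a measure of RNA or labelling quality, was 0.338 and 1.27 in Pulvinar and ran over the other arrays from -0.094 to 1.22 in replicate 1 and from 1.15 to 1.64 in replicate 2. Replicate 1 of Pulvinar thus shared its XIST and RPS4Y1 pattern with Centre Median alone. The labels do not say whether the 5 arrays of replicate 1 come from 1 animal, and if they do not, differences between nuclei and between animals or sexes cannot be told apart in that replicate, also with the replicate number as a block.

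Marker genes were read on the Pulvinar arrays within the limits of human probes on monkey RNA and without detection calls. All arrays of the series are from the thalamus, so a comparison among them cannot show that the tissue is thalamic. TCF7L2, a transcription factor that marks excitatory neurons of the thalamus, had log2 levels of 12.40 and 12.999 in Pulvinar, against 11.78 to 12.38 in the other replicate 1 arrays and 12.68 to 12.93 in the other replicate 2 arrays. SLC17A6, which loads glutamate into vesicles of relay neurons, lay at 10.59 and 10.86 in Pulvinar, inside the range of the other nuclei in both replicates. Both markers were thus as high in Pulvinar as elsewhere in the thalamus. The summed intensity of 10 markers of striatal neurons was 1088 and 1207 in Pulvinar, against 1024 to 1148 in the other nuclei of replicate 1 and 1090 to 1205 in those of replicate 2. The sum of 13 markers of cortical and hippocampal pyramidal neurons was 2218 and 1998 in Pulvinar, against 1913 to 2379 and 1780 to 1934. In replicate 2 both sums were thus highest in Pulvinar, that of the striatal markers by a narrow margin. Some markers of these cell types were not analysed here, and no marker is known with certainty to separate pulvinar from all the other nuclei, so the nucleus itself was taken from the labels.

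No gene passed the test for Pulvinar against the mean of the other 4 nuclei. Of 11963 genes tested with limma, with the replicate number as a block, 0 were called at a Benjamini-Hochberg adjusted p under 0.05 (0% of genes), and the smallest adjusted p was 0.134. At an unadjusted p under 0.05 there were 446 genes (3.73%), 269 higher and 177 lower in Pulvinar. Without the block 0 were called as well, with 34 at an unadjusted p under 0.05. When replicate 1 was further divided by its XIST and RPS4Y1 pattern, which leaves 3 residual degrees of freedom and sets the first Pulvinar array against Centre Median alone, 4 genes were called against the rest. These were NRXN3 (log2 difference 1.10, limma adjusted p = 0.00571), RND3 (1.11, 0.0184), SLC24A3 (-1.02, 0.0444) and CALB1 (1.18, 0.0444). RND3 and SLC24A3 lie outside the rule for named genes and were named after their values were seen. In this division Anterior Thalamus, Medial Thalamus and Ventral Thalamus share a block with Pulvinar only in replicate 2. By replicate the 4 genes differed by 0.506 and 1.14, 0.351 and 1.19, -0.491 and -0.894, and -0.435 and 1.18. CALB1 was thus lower in Pulvinar in replicate 1. With the replicate number alone as the block, their limma adjusted p was 0.352, 0.907, 0.999 and 0.999.

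The Pulvinar differences of replicate 1 were not those of replicate 2 across genes as a whole. The correlation of the 2 sets of differences over the 11963 genes was -0.0166 in Pulvinar, against 0.0516 in Anterior Thalamus, 0.254 in Centre Median, 0.16 in Medial Thalamus and 0.401 in Ventral Thalamus, as a description over genes, which are not independent replicates. The Pulvinar sign was opposite in the 2 replicates for 51.4% of genes, against 50.1% for Anterior Thalamus and 40.4% for Ventral Thalamus. The median size of a difference from the other 4 nuclei was 0.0945 and 0.0963. Of genes differing by at least 0.3 in both replicates, 72 had the same sign and 61 had opposite signs in Pulvinar. The counts were 85 and 52 in Anterior Thalamus, 178 and 18 in Centre Median, 262 and 86 in Medial Thalamus and 411 and 25 in Ventral Thalamus. Pulvinar was therefore the nucleus whose profile was least alike between its 2 arrays, with Anterior Thalamus close to it. The description that follows is limited to genes whose difference was of one sign and similar size in both.

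**Figure D1:**
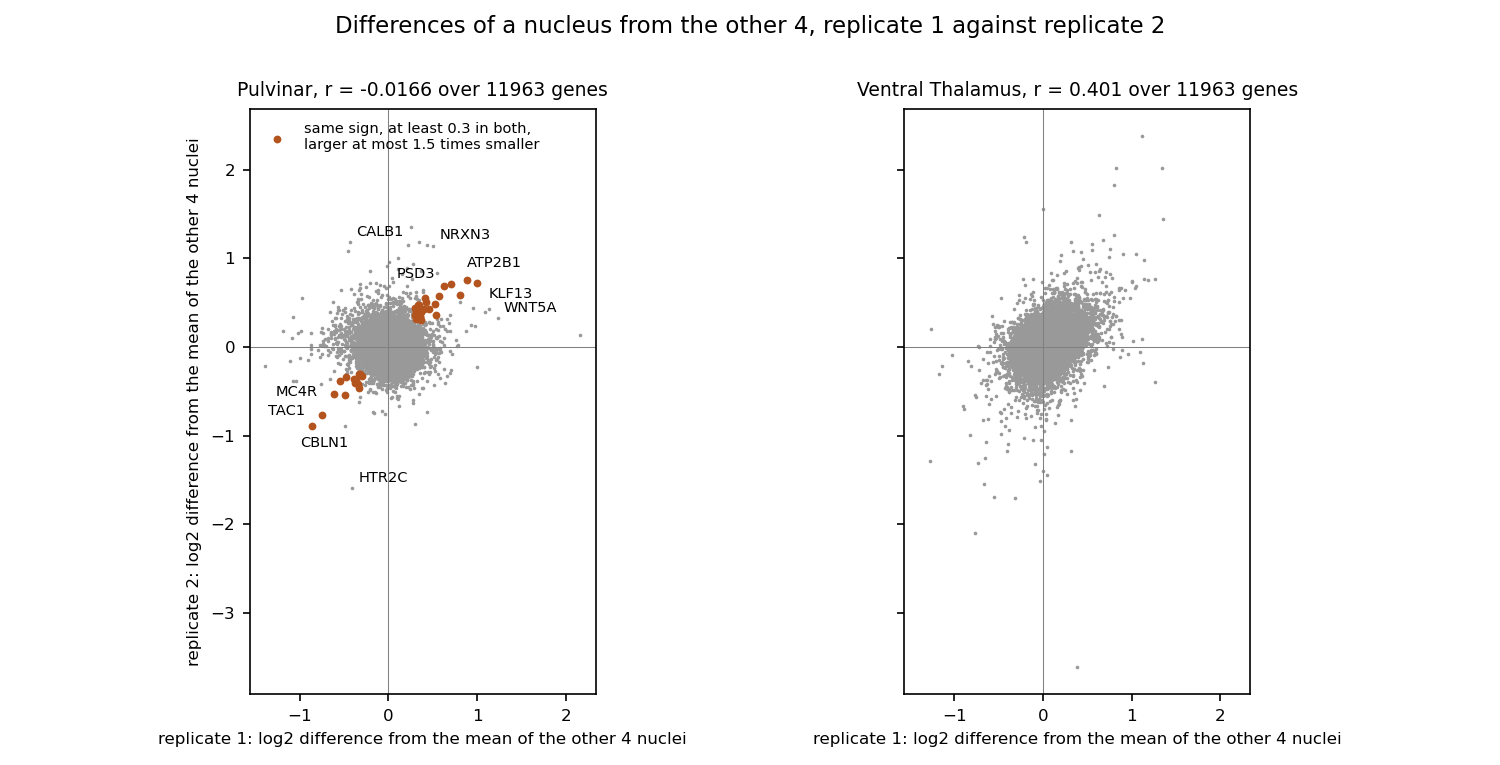
Log2 difference of a nucleus from the mean of the other 4 nuclei, replicate 1 on the horizontal and replicate 2 on the vertical axis, 1 point per gene, for Pulvinar at left and Ventral Thalamus at right. The Pulvinar cloud has no slope (r = -0.0166), the 43 coloured genes lie near its diagonal, and the Ventral Thalamus cloud leans along it (r = 0.401).

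A gene was taken as concordant when its 2 Pulvinar differences had the same sign, were both at least 0.3 in size and the larger was at most 1.5 times the smaller. By this rule 29 genes were concordantly higher (0.242% of 11963) and 14 concordantly lower (0.117%) in Pulvinar. The same rule took 63 genes in Anterior Thalamus, 113 in Centre Median, 171 in Medial Thalamus and 283 in Ventral Thalamus. The rule itself uses these differences, so the members are described and not tested. At its edges, EGFR stood just inside the minimum with differences of -0.301 and -0.332 and LAP3 just outside with 0.318 and 0.299, and RNF6 (0.535 and 0.359) and CA10 (0.334 and 0.503) stood on either side of the limit on the ratio. Of the 29 higher genes, 16 were highest of the 5 nuclei in both replicates, and 7 of the 14 lower genes were lowest in both. Over all genes those shares were 2.89% and 2.85%, but the rule itself favours such ranks, so nothing is read from the difference.

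The largest difference of the higher set was that of KLF13, a Krüppel-like zinc-finger transcription factor. It had log2 levels of 6.99 and 8.01 in Pulvinar, against 5.81 and 7.32 in Anterior Thalamus, 6.34 and 7.37 in Centre Median, 6.01 and 6.97 in Medial Thalamus and 5.83 and 7.50 in Ventral Thalamus. Its Pulvinar array was the highest of each replicate, with gaps of 0.654 and 0.51 to the next nucleus, which no other gene matched in both replicates. The difference was 0.857 (SE 0.136, 95% interval 0.562 to 1.15, 1.81-fold, limma adjusted p = 0.134). Its levels in replicate 2 were above those of replicate 1 in all 5 nuclei, so Pulvinar in replicate 1 lay below the mean of the others in replicate 2.

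PSD3, an exchange factor for ARF GTPases found at postsynaptic sites, had log2 levels of 8.98 and 9.34 in Pulvinar, against 8.38 and 8.67 in Anterior Thalamus, 8.34 and 8.49 in Centre Median, 7.90 and 8.41 in Medial Thalamus and 8.47 and 8.97 in Ventral Thalamus. The 2 differences, 0.704 and 0.712, were nearly equal, and Pulvinar was highest in both replicates by 0.508 and 0.376. The mean difference was 0.708 (SE 0.106, 1.63-fold, limma adjusted p = 0.134). The other 2 probe sets of PSD3 gave 0.297 and 0.963 in one case and 0.0776 and 0.289 in the other, so the sign was shared and the size was not.

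ATP2B1, a calcium pump of the plasma membrane, had log2 levels of 10.64 and 11.51 in Pulvinar, against 10.27 and 10.97 in Anterior Thalamus, 9.492 and 10.53 in Centre Median, 8.75 and 10.11 in Medial Thalamus and 10.50 and 11.40 in Ventral Thalamus. Pulvinar and Ventral Thalamus were close, 0.139 and 0.113 apart, and Medial Thalamus was lowest. All 3 probe sets of ATP2B1 were concordantly higher, with mean differences of 0.824, 0.724 and 0.719. For the brightest of them the adjusted p against the other 4 nuclei was 0.134 (limma, 1.77-fold).

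CHST15, a sulfotransferase that adds sulfate to chondroitin chains of the extracellular matrix, had log2 levels of 8.50 and 8.67 in Pulvinar, against 8.24 and 8.05 in Anterior Thalamus, 7.38 and 7.61 in Centre Median, 7.77 and 7.73 in Medial Thalamus and 8.11 and 8.56 in Ventral Thalamus. OPN3, an opsin expressed outside the eye, lay at 8.47 and 8.83 in Pulvinar, against 7.99 and 8.26 in Anterior Thalamus, 7.66 and 7.88 in Centre Median, 7.02 and 7.75 in Medial Thalamus and 8.92 and 9.16 in Ventral Thalamus. CHST15 was highest in Pulvinar on both arrays, whereas OPN3 was second to Ventral Thalamus on both. Their differences from the other 4 nuclei were 0.655 for CHST15 and 0.572 for OPN3, the second of the same size in each replicate.

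**Figure D2:**
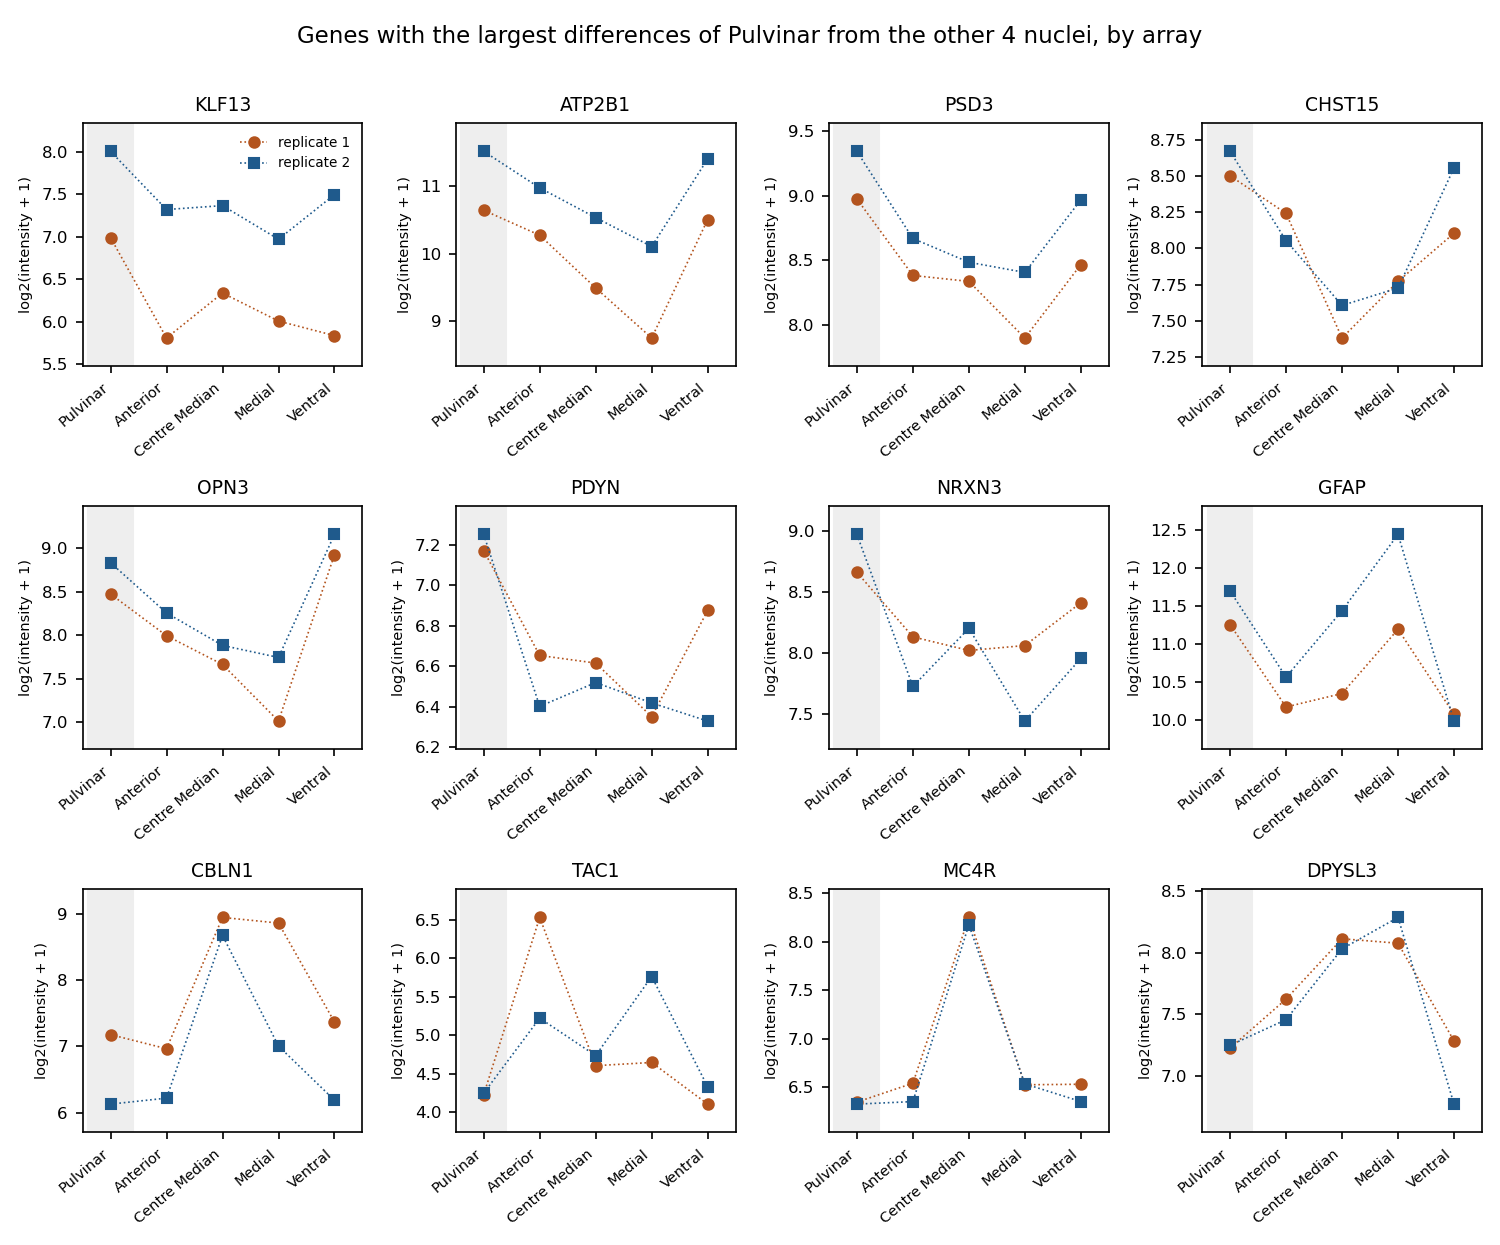
Log2 level of 12 genes on each of the 10 arrays, with Pulvinar leftmost and shaded, circles for replicate 1 and squares for replicate 2 joined within a replicate; each panel has its own vertical scale. KLF13, PSD3, ATP2B1, CHST15, PDYN and NRXN3 are highest in Pulvinar in both replicates. The high levels of MC4R lie in Centre Median and those of TAC1 in Anterior Thalamus and, in replicate 2, also in Medial Thalamus.

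Several genes of the higher set encode kinases, phosphatases or regulators of G proteins, a grouping made after the set was known. CAMK2A, the alpha subunit of the calcium/calmodulin-dependent kinase of excitatory synapses, lay at 9.06 and 8.93 in Pulvinar, against 8.11 to 8.98 in the other nuclei of replicate 1 and 8.14 to 8.66 in those of replicate 2. Its other probe set gave differences of 0.481 and 0.302. RGS7, which shortens G-protein signals in neurons, lay at 8.08 and 8.50 in Pulvinar, against 7.34 to 7.94 and 7.83 to 8.29. A second, dimmer probe set of RGS7 gave differences of 0.127 and -0.138. Both genes were highest in Pulvinar in each replicate, at mean differences of 0.463 and 0.419. DUSP6, a phosphatase that switches off ERK kinases, differed by 0.459 and 0.424 and was concordant with a second of its 3 probe sets at 0.622 and 0.557, but Ventral Thalamus was above Pulvinar in replicate 1. PTPN3, a tyrosine phosphatase, differed by 0.337 and 0.426, and PDP1, the phosphatase that activates pyruvate dehydrogenase, by 0.304 and 0.363. TIAM1 and DOCK3, activators of the GTPase Rac in growing and synaptic processes, differed by 0.368 and 0.302 and by 0.308 and 0.403.

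Other regulators of transcription and RNA were also on the list. CREB3L2, a transcription factor that is released from the endoplasmic reticulum membrane, lay at 7.32 and 7.91 in Pulvinar, against 6.60 to 7.09 and 7.17 to 7.48, highest in both replicates by 0.229 and 0.428. HIVEP2, a large zinc-finger protein of brain, differed by 0.372 and 0.412, ZBTB7A, a repressor, by 0.321 and 0.353, MTA1, a subunit of a chromatin remodelling complex, by 0.301 and 0.434, and ZRSR2, a splicing factor for minor introns, by 0.337 and 0.338. MTA1 rested on a low Anterior Thalamus array in replicate 1, 5.08 against 6.56 in Pulvinar, and Pulvinar was below Ventral Thalamus there. The other probe set of MTA1 gave differences of 0.125 and -0.259.

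The ubiquitin ligases RNF6, WWP1 and TRIM36 were higher by 0.447, 0.41 and 0.406 in the mean, all with Medial Thalamus lowest in replicate 1. EPS15 and ERGIC2, which act in endocytosis and in transport between endoplasmic reticulum and Golgi, differed by 0.396 and 0.387 and were highest in Pulvinar in both replicates. WDR47, which binds microtubules in neurons, differed by 0.361 and 0.337, S100A5, a calcium-binding protein, by 0.36 and 0.336, and EPHX1, an epoxide hydrolase, by 0.364 and 0.395. EPHA4, a receptor for ephrins in axon guidance, differed by 0.314 and 0.317 from the mean, but Centre Median was above Pulvinar in both replicates.

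GFAP, CAV1 and FAM107A were lower in Pulvinar than in Medial Thalamus in replicate 2. GFAP, the intermediate filament of astrocytes, had log2 levels of 11.25 and 11.70 in Pulvinar, against 10.17 and 10.56 in Anterior Thalamus, 10.35 and 11.44 in Centre Median, 11.19 and 12.44 in Medial Thalamus and 10.08 and 9.99 in Ventral Thalamus. Pulvinar was thus close to Medial Thalamus in replicate 1 and below it in replicate 2, and the second GFAP probe set showed differences of 0.116 and -0.122. CAV1, a caveolar protein of vessels and glia, lay at 6.92 and 7.56 in Pulvinar, against 6.17 to 6.61 and 6.33 to 7.78, and FAM107A at 8.83 and 9.59, against 8.14 to 8.65 and 8.72 to 9.78. The other probe set of CAV1 gave differences of 0.31 and -0.152, and that of FAM107A 0.43 and -0.0877. In bulk tissue, more cells of a type and more RNA per cell cannot be told apart.

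The wider astrocyte list stood beside these genes as follows. Its 18 measured genes had a summed intensity of 17066 and 23762 in Pulvinar, against 13207 to 16595 in replicate 1 and 21212 to 26077 in replicate 2. Of the 18, 7 were above the other nuclei in both replicates and 1 below, the median difference was 0.0542, and 0 passed the test. AQP4, the water channel of astrocyte endfeet, differed by 0.0543 and 0.0136, and SLC1A3, a glutamate transporter of astrocytes, by 0.0904 and -0.0913. The part of astrocyte content in the GFAP value was not tested.

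**Figure D3:**
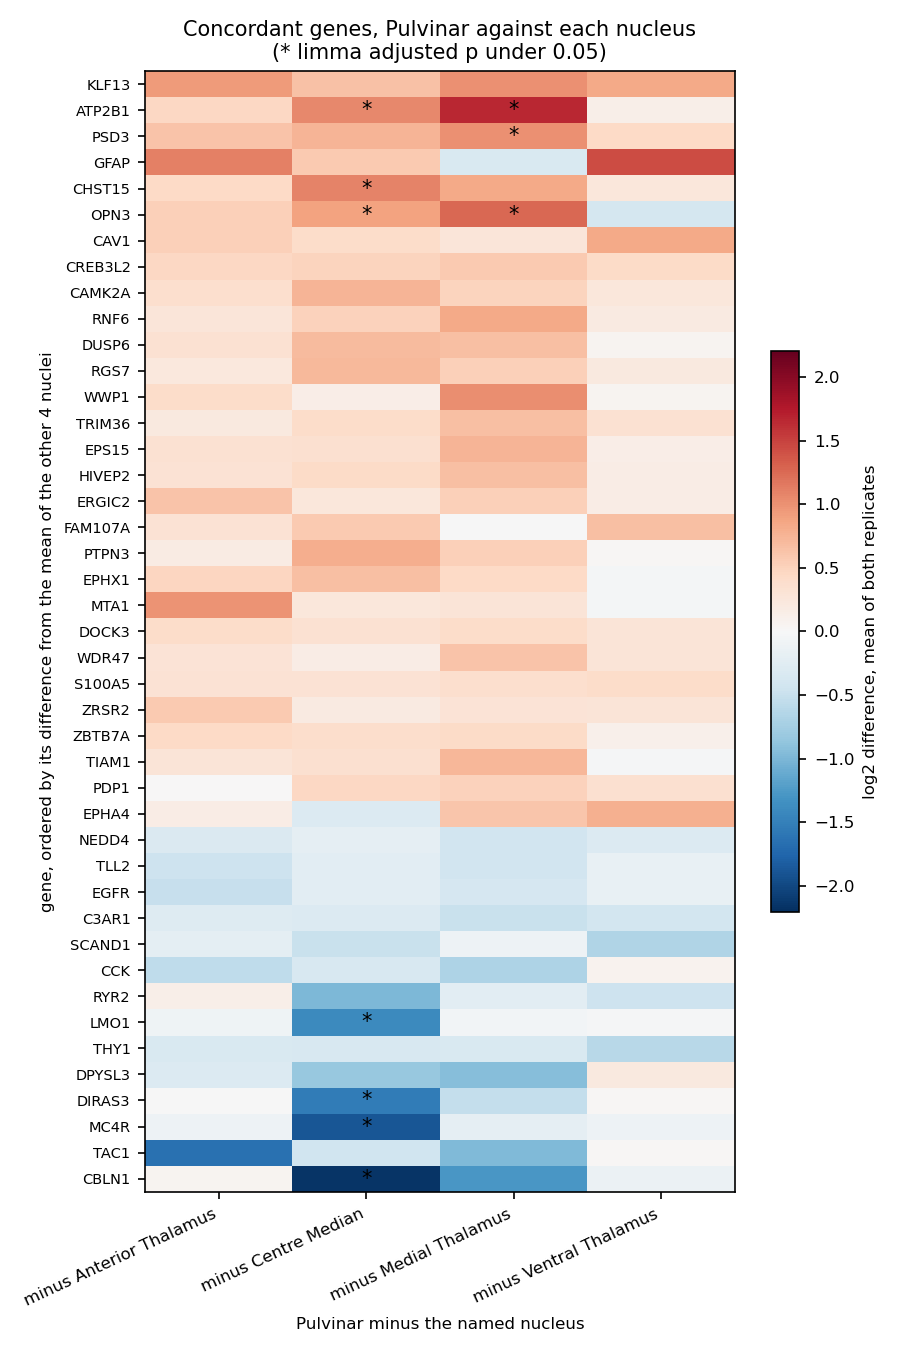
Log2 difference of Pulvinar from each of the other 4 nuclei, mean of both replicates, for the 29 concordantly higher and 14 concordantly lower genes (rows, from the highest to the lowest difference); red is higher and blue lower in Pulvinar, and a star marks a limma adjusted p under 0.05. Stars stand only in the Centre Median and Medial Thalamus columns, and the Ventral Thalamus column is near white for many higher genes.

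Among the lower genes, peptides, receptors and synaptic organisers led. CBLN1, a secreted organiser that links neurexins to postsynaptic receptors, had log2 levels of 7.18 and 6.13 in Pulvinar, against 6.97 and 6.22 in Anterior Thalamus, 8.94 and 8.67 in Centre Median, 8.86 and 7.01 in Medial Thalamus and 7.37 and 6.19 in Ventral Thalamus. Pulvinar, Anterior Thalamus and Ventral Thalamus were close to each other in each replicate, and the high levels behind the difference of -0.873 (SE 0.204, 0.546-fold, limma adjusted p = 0.686) were those of Centre Median and, mainly in replicate 1, Medial Thalamus. MC4R, a melanocortin receptor, was at 6.34 and 6.32 in Pulvinar, against 8.25 and 8.17 in Centre Median and 6.35 to 6.54 on the 6 arrays of the remaining nuclei. Its difference was -0.572 (SE 0.0944, limma adjusted p = 0.134), and Pulvinar was lowest in both replicates by a narrow margin.

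TAC1, the precursor of substance P, had log2 levels of 4.23 and 4.25 in Pulvinar, against 6.53 and 5.22 in Anterior Thalamus, 4.61 and 4.74 in Centre Median, 4.65 and 5.76 in Medial Thalamus and 4.11 and 4.33 in Ventral Thalamus. The highest level was thus that of Anterior Thalamus in replicate 1 and that of Medial Thalamus in replicate 2. Levels in Pulvinar and Ventral Thalamus were low on the scale of these arrays. Without detection calls it is not known whether the probe set was above background there. CCK, another peptide precursor, lay at 6.44 and 6.42 in Pulvinar, against 6.55 to 7.10 and 6.16 to 7.34, with Medial Thalamus and Anterior Thalamus above Pulvinar in both replicates. DPYSL3, a collapsin response protein of the growth cone, was at 7.22 and 7.25 in Pulvinar, against 7.28 to 8.11 and 6.77 to 8.29. Each of these genes was as low or lower in Ventral Thalamus in at least 1 replicate.

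Of the 14 lower genes, 7 were lowest in Pulvinar in both replicates. THY1, a surface glycoprotein of neurons, was at 9.45 and 9.35 in Pulvinar, against 9.73 to 10.05 and 9.48 to 9.97. The other probe sets of THY1 differed less, by -0.342 and 0.0266 and by -0.215 and -0.0857. C3AR1, the receptor of complement fragment C3a on microglia, lay at 5.34 and 5.12, against 5.55 to 5.96 and 5.46 to 5.53. SCAND1, EGFR, TLL2, NEDD4 and MC4R were the other 5 that were lowest in both replicates. SCAND1 differed by -0.383 and -0.362, the receptor EGFR by -0.301 and -0.332, the metalloprotease TLL2 by -0.329 and -0.302 and the ubiquitin ligase NEDD4 by -0.317 and -0.309. The GTPase DIRAS3 (-0.482 and -0.545) and the transcription cofactor LMO1 (-0.327 and -0.462) were highest in Centre Median, and their Pulvinar levels were close to those of Anterior Thalamus and Ventral Thalamus. The calcium release channel RYR2 differed by -0.371 and -0.405, yet in Pulvinar it was above Anterior Thalamus in both replicates. Several of these genes were dim, with mean log2 levels of 5.53 for C3AR1, 5.387 for NEDD4, 5.724 for DIRAS3 and 5.875 for LMO1. Of the 14 lower genes, 5 had a mean log2 level of at least 7.

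Other probe sets of the concordant genes were not used by the rule, although they were read on the same arrays. Of the 33 further probe sets on the array for 21 of the 43 genes, 26 had the same sign of the mean difference, 19 the same sign in both replicates and 0 the opposite sign in both. Only 3 of the 33 met the concordance rule itself, and these belonged to ATP2B1 and DUSP6. When the median of a gene's probe sets was taken, the difference was more than 1.5 times smaller for 10 of the 43 genes. These were CAV1, GFAP, MTA1, RGS7, RNF6, WWP1, ZBTB7A, EGFR, THY1 and TLL2.

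Direct comparisons with single nuclei, which share the 2 Pulvinar arrays, gave called genes against Centre Median and Medial Thalamus. Against Centre Median 11 genes passed (0.092% of 11963), 4 higher (0.0334%) and 7 lower (0.0585%) in Pulvinar. Against Medial Thalamus 6 passed (0.0502%), 5 higher (0.0418%) and 1 lower (0.00836%), and against Anterior Thalamus and Ventral Thalamus 0 (0%). Unadjusted p under 0.05 was reached by 502 genes against Centre Median (4.2%), 943 against Medial Thalamus (7.88%), 572 against Anterior Thalamus (4.78%) and 710 against Ventral Thalamus (5.93%). Both non-zero counts depended on single arrays: without Pulvinar replicate 1 they were 5 against Centre Median and 0 against Medial Thalamus, and without Medial Thalamus replicate 2 the second was 62. Without the replicate block only MC4R against Centre Median was called (limma adjusted p = 0.0161), and 0 genes were called against Medial Thalamus.

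Against Centre Median the called genes were mostly lower in Pulvinar. MC4R fell by 1.88 on the log2 scale (SE 0.119, 0.272-fold, limma adjusted p = 1.3e-05), with pair differences of -1.91 and -1.85. CBLN1 fell by 2.15 (SE 0.258, limma adjusted p = 0.00414) and TPBG, a surface glycoprotein that acts in Wnt signalling, by 1.53 (SE 0.144, limma adjusted p = 0.00067). DIRAS3 and LMO1 fell by 1.54 and 1.40 (limma adjusted p = 0.000841 and 0.00327). SERPINI1, the neuronal protease inhibitor neuroserpin, and LRRC17, which are outside the rule for named genes and were named after their values were seen, fell by 1.56 and 0.832 (limma adjusted p = 0.018 and 0.0284). These are differences against a single nucleus in which all 7 genes were at their highest.

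CHST15, HS3ST1, ATP2B1 and OPN3 were the 4 genes that rose against Centre Median. HS3ST1, which adds sulfate to heparan chains, had log2 levels of 6.31 and 7.60 in Pulvinar, against 5.31 and 6.27 in Centre Median, 4.81 and 6.32 in Medial Thalamus, 6.48 and 7.07 in Anterior Thalamus and 7.08 and 8.26 in Ventral Thalamus. It rose 2.25-fold over Centre Median (limma adjusted p = 0.0284) and 2.62-fold over Medial Thalamus (limma adjusted p = 0.014), but was below Ventral Thalamus on both arrays. The other 2 probe sets of HS3ST1 differed from the mean of the other nuclei by 0.143 and -0.0744, against 0.508 for the one used, and with the median of its probe sets HS3ST1 was called against neither nucleus. CHST15 rose 2.13-fold over Centre Median (limma adjusted p = 0.0174), ATP2B1 2.09-fold (0.0388) and OPN3 1.84-fold (0.0494).

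Against Medial Thalamus the same pump and opsin led. ATP2B1 rose 3.14-fold in Pulvinar (log2 difference 1.65, SE 0.17, limma adjusted p = 0.00377) and OPN3 2.41-fold (1.27, SE 0.145, 0.00587). PSD3 rose 2.01-fold and KIT, a receptor tyrosine kinase, 2.13-fold (limma adjusted p = 0.0154 each). LOC728392 was 0.324-fold of Medial Thalamus (limma adjusted p = 0.0154). KIT and LOC728392 are outside the rule for named genes and were named after their values were seen. With replicate 1 divided by XIST and RPS4Y1, 8 genes were called against Medial Thalamus, of which 3 were among these 6 (ATP2B1, OPN3 and HS3ST1), and PSD3, KIT and LOC728392 were not called. KIT was at 9.66 and 9.76 in Pulvinar, highest on both arrays, against 8.37 and 8.87 in Medial Thalamus and 9.07 to 9.71 in the other 3 nuclei.

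No gene passed against Anterior Thalamus, where the smallest limma adjusted p was 0.807, or against Ventral Thalamus, where it was 0.109. With replicate 1 divided by XIST and RPS4Y1 these calls differed: NRXN3 was called against Anterior Thalamus (limma adjusted p = 0.021) and 18 genes against Ventral Thalamus (smallest limma adjusted p = 0.00296), NEFM, PVALB and PLXNC1 among them. In that division both nuclei share a block with Pulvinar only in replicate 2. The 3 genes of smallest p against Anterior Thalamus were KLF13 (log2 difference 0.936), PPM1H, a protein phosphatase (0.655), and PSD3 (0.634), all higher in Pulvinar. Against Ventral Thalamus they were TF, the iron carrier made by oligodendrocytes (-0.787), the receptor EPHA4 (0.779) and ESRRG, an estrogen-related nuclear receptor of oxidative metabolism (-0.82). ESRRG was lowest in Pulvinar on both arrays, at 6.86 and 7.45, against 6.95 to 7.43 and 7.73 to 8.52.

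Some genes of larger size shared their sign in both replicates but not their size. PDYN, the dynorphin precursor, had log2 levels of 7.17 and 7.25 in Pulvinar, against 6.65 and 6.40 in Anterior Thalamus, 6.62 and 6.52 in Centre Median, 6.35 and 6.42 in Medial Thalamus and 6.88 and 6.33 in Ventral Thalamus. It was highest in Pulvinar by 0.296 and 0.732, with differences of 0.547 and 0.834 and a ratio of 1.52, just past the limit of the rule (limma adjusted p = 0.192). NRXN3, a presynaptic adhesion protein, had levels of 8.66 and 8.97 in Pulvinar, against 8.13 and 7.72 in Anterior Thalamus, 8.02 and 8.20 in Centre Median, 8.06 and 7.44 in Medial Thalamus and 8.41 and 7.95 in Ventral Thalamus. It was highest in Pulvinar on both arrays too, and a second of its probe sets, with 0.586 and 0.534, was concordant.

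In all, 29 genes had differences of at least 0.3 and 1 sign but a ratio above 1.5. WNT5A, a secreted Wnt ligand, differed by 1.23 and 0.326, and Ventral Thalamus was above Pulvinar in replicate 2. EPHA3, an ephrin receptor, differed by 0.436 and 1.15. HTR2C, a serotonin receptor, differed by -0.406 and -1.59, and in replicate 2 its level was 8.83 in Medial Thalamus against 4.61 in Pulvinar. KCNJ6, a G-protein-gated potassium channel, was not among the 29, with differences of 0.266 and 0.768, but was highest in Pulvinar on both arrays. Across all genes, 7 were highest in Pulvinar with a gap of at least 0.2 to the next nucleus in both replicates and 2 were lowest by as much. The 7 were KLF13, PSD3, PDYN, NRXN3, KCNJ6, CREB3L2 and UCP2, and the 2 were AP2M1 and C3AR1, of which UCP2 and AP2M1 were named after their values were seen.

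Markers that describe classes of thalamic neurons went opposite ways on the 2 Pulvinar arrays. CALB1, the calbindin of matrix neurons that project widely to upper cortical layers, had log2 levels of 6.56 and 9.55 in Pulvinar, against 7.44 and 8.63 in Anterior Thalamus, 5.71 and 8.69 in Centre Median, 7.58 and 7.83 in Medial Thalamus and 7.26 and 8.35 in Ventral Thalamus. Pulvinar was thus second lowest in replicate 1 and highest in replicate 2, with differences of -0.435 and 1.18, and the second CALB1 probe set gave -0.542 and 1.22. PVALB, the parvalbumin of core relay neurons, was at 9.82 and 9.84 in Pulvinar, against 7.91 to 11.32 and 9.25 to 11.80. Its differences were 0.51 and -0.428, and Pulvinar lay inside the range of the other nuclei in both replicates. NEFM, a neurofilament of large axons, was at 10.38 and 10.07 in Pulvinar, against 9.02 to 10.98 and 9.81 to 11.96, above the mean of the others in replicate 1 and below it in replicate 2.

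GAD1 was above all other nuclei in replicate 1 only, and CALB2 lay inside their range in both replicates. CALB2, calretinin, was at 8.60 and 9.24 in Pulvinar, against 8.15 to 10.28 and 8.14 to 9.83, a difference of -0.709 and 0.0889. GAD1, which makes GABA in local interneurons, was at 10.27 and 10.20, against 8.54 to 9.98 and 9.58 to 10.61, a difference of 0.765 and 0.0796. Of the 61 genes with differences of at least 0.3 in size and opposite sign, 48 were lower in Pulvinar in replicate 1 and higher in replicate 2, and 13 the reverse. The glutamate receptor subunit GRIA2 (-0.512 and 0.412) and the postsynaptic scaffold HOMER1 (-0.383 and 0.596) were among the 48. The part of the XIST and actin differences between arrays in these opposite signs was not tested.

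**Figure D4:**
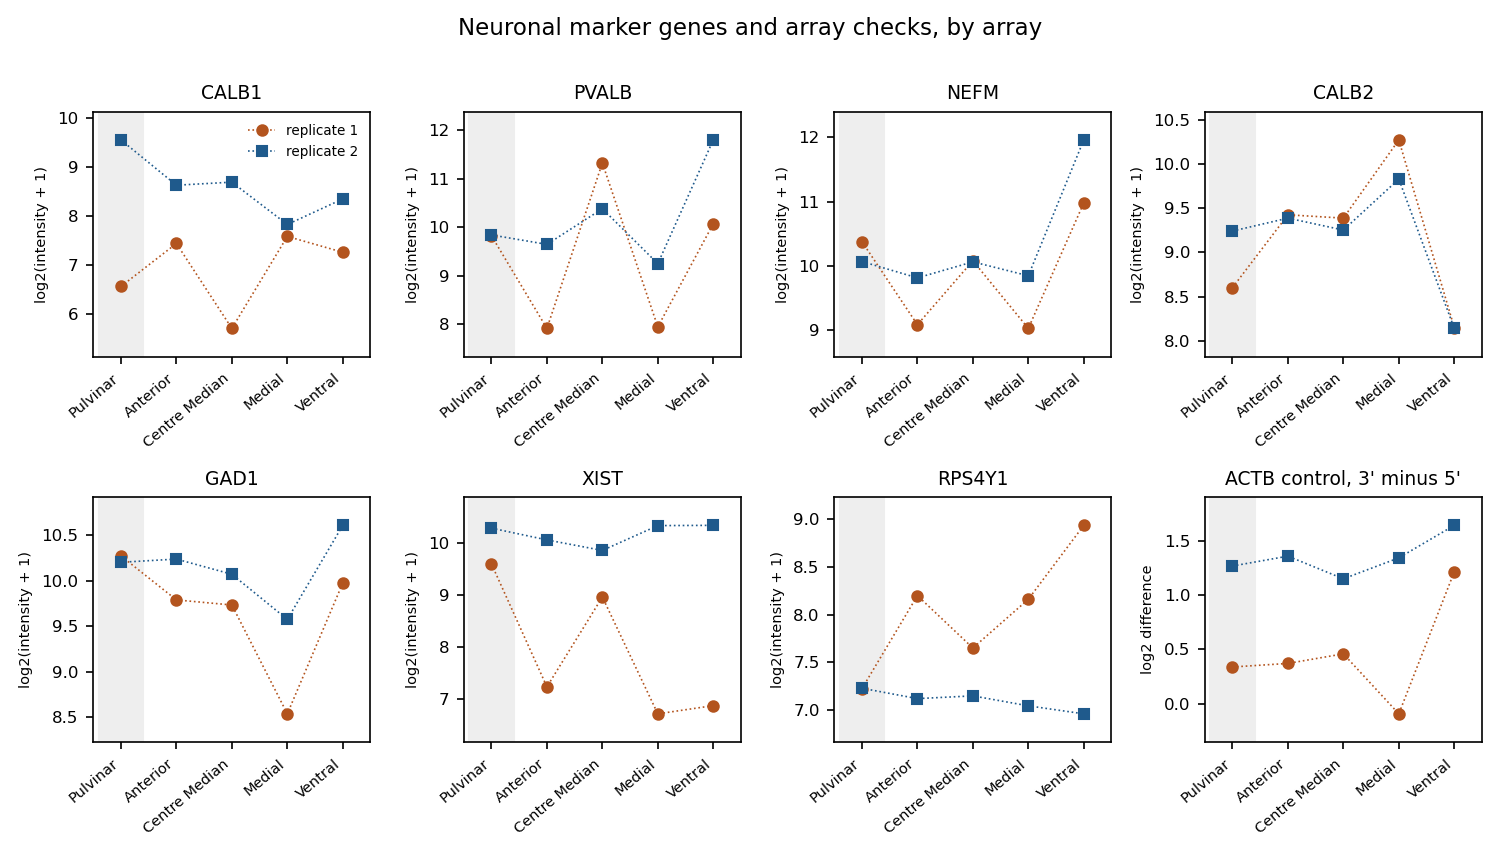
Log2 level of 5 neuronal marker genes, of XIST and RPS4Y1, and the actin 3' minus 5' difference on each of the 10 arrays, with Pulvinar leftmost and shaded, circles for replicate 1 and squares for replicate 2. CALB1 in Pulvinar is 6.56 in replicate 1 and 9.55 in replicate 2, and XIST in replicate 1 is high only in Pulvinar and Centre Median.

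Gene lists were read by the share of members on one side of the other nuclei in both replicates, which over all genes was 24.5% above and 24.1% below. In each of the 30 lists 0 members passed the test against the other 4 nuclei. Voltage-gated potassium and HCN channels, which set firing and resting properties of neurons, had 11 of 22 measured members above and 1 below in both replicates. Their median difference was 0.0915 (0.0894 in replicate 1 and 0.102 in replicate 2), against -0.00111 over all genes. KCND2, an A-type channel, differed by 0.347 and 0.526, HCN2, a pacemaker channel, by 0.15 and 0.22, and KCNMA1, a calcium-activated channel, by 0.169 and 0.218. KCNA1 was the 1 member below in both, at -0.108 and -0.198.

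Further lists of receptors, channels, peptides, adhesion, guidance and matrix genes were set against the same shares over all genes. Their median differences ran from -0.0674 for cadherins to 0.0593 for metabotropic glutamate receptors. Ionotropic glutamate receptors had 6 of 14 members above and 3 below, with GRIN2B at 0.871 and 0.18 and GRIK1 at 0.16 and 0.55. Metabotropic glutamate receptors and phospholipase C beta had 3 of 14 above and 2 below, with GRM5 at 0.206 and 0.885. GABA-A receptor subunits had 3 of 14 above and 1 below, and voltage-gated sodium and calcium channels 6 of 22 above and 2 below. Neuropeptides and opioid genes had 7 of 35 above and 13 below, the 13 including TAC1, CCK, MC4R and NTS. Cadherins and protocadherins had 5 of 24 above and 10 below, with a median of -0.0674, and axon guidance genes 13 of 42 above and 10 below. Proteoglycans and sulfation enzymes had 11 of 31 above, CHST15 and HS3ST1 among them, and 5 below.

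Lists for relay and matrix neurons had medians of opposite sign on the 2 Pulvinar arrays. The first-order relay profile, 15 measured genes such as SCN1A and ESRRG, had a median difference of 0.264 in replicate 1 and -0.279 in replicate 2. The higher-order and matrix profile, 22 genes, had -0.195 and 0.095, and 6 of its members were above and 8 below in both replicates. Against Ventral Thalamus alone, 11 of the 15 relay genes were below in both replicates (median difference -0.478), as were 3259 of all 11963 genes. Against Medial Thalamus 8 of the 15 were above in both and 1 below (median difference 0.288), beside 3079 above and 2860 below over all genes. The median of the list by replicate was 0.489 and -0.041 against Anterior Thalamus, and 0.116 and -0.125 against Centre Median. Cytosolic ribosomal proteins also lay on opposite sides, with medians of -0.226 and 0.234 over 38 genes.

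Lists of myelin and of oxidative phosphorylation placed Pulvinar between nuclei. Of 20 genes of oligodendrocytes and myelin, 0 were above and 9 below the other 4 nuclei in both replicates (median -0.0907). Against Ventral Thalamus 16 of the 20 were below in both (median -0.392), against Centre Median 13 were below (median -0.158), and against Medial Thalamus 12 were above (median 0.187). Over all 11963 genes, 3259 were below Ventral Thalamus, 2766 below Centre Median and 3079 above Medial Thalamus in both replicates. MBP, the myelin basic protein, was at 12.43 and 13.12 in Pulvinar, against 12.22 to 13.17 and 12.90 to 13.54. Of 56 genes of oxidative phosphorylation 52 were below Ventral Thalamus in both replicates (median -0.297), while 25 were above Medial Thalamus (median 0.0809). Against Ventral Thalamus 0 members of either list were called.

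Markers of vessels, microglia and choroid plexus were read in the same way. Blood vessel genes had 1 of 16 above and 7 below, with a median of -0.0721, and their summed intensity was 3814 and 3446 in Pulvinar, against 3705 to 4032 and 3412 to 4059. Microglial genes had 0 of 16 above and 5 below. Among their markers AIF1 differed by -0.0339 and -0.102, CX3CR1 by -0.0539 and 0.12 and CSF1R by -0.0793 and 0.136. The 15 genes of choroid plexus, ependyma and meninges summed to 6088 and 7679 in Pulvinar, against 5293 to 6074 and 6874 to 13977. TTR, the transthyretin of choroid plexus, was at 8.34 and 8.41 in Pulvinar, against 7.53 to 7.73 in replicate 1 and 7.17 to 12.19 in replicate 2, the last in Medial Thalamus. The Pulvinar array of replicate 1 was thus highest for the choroid plexus list, by a sum of 6088 against 6074, and its part in other values was not tested.

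**Figure D5:**
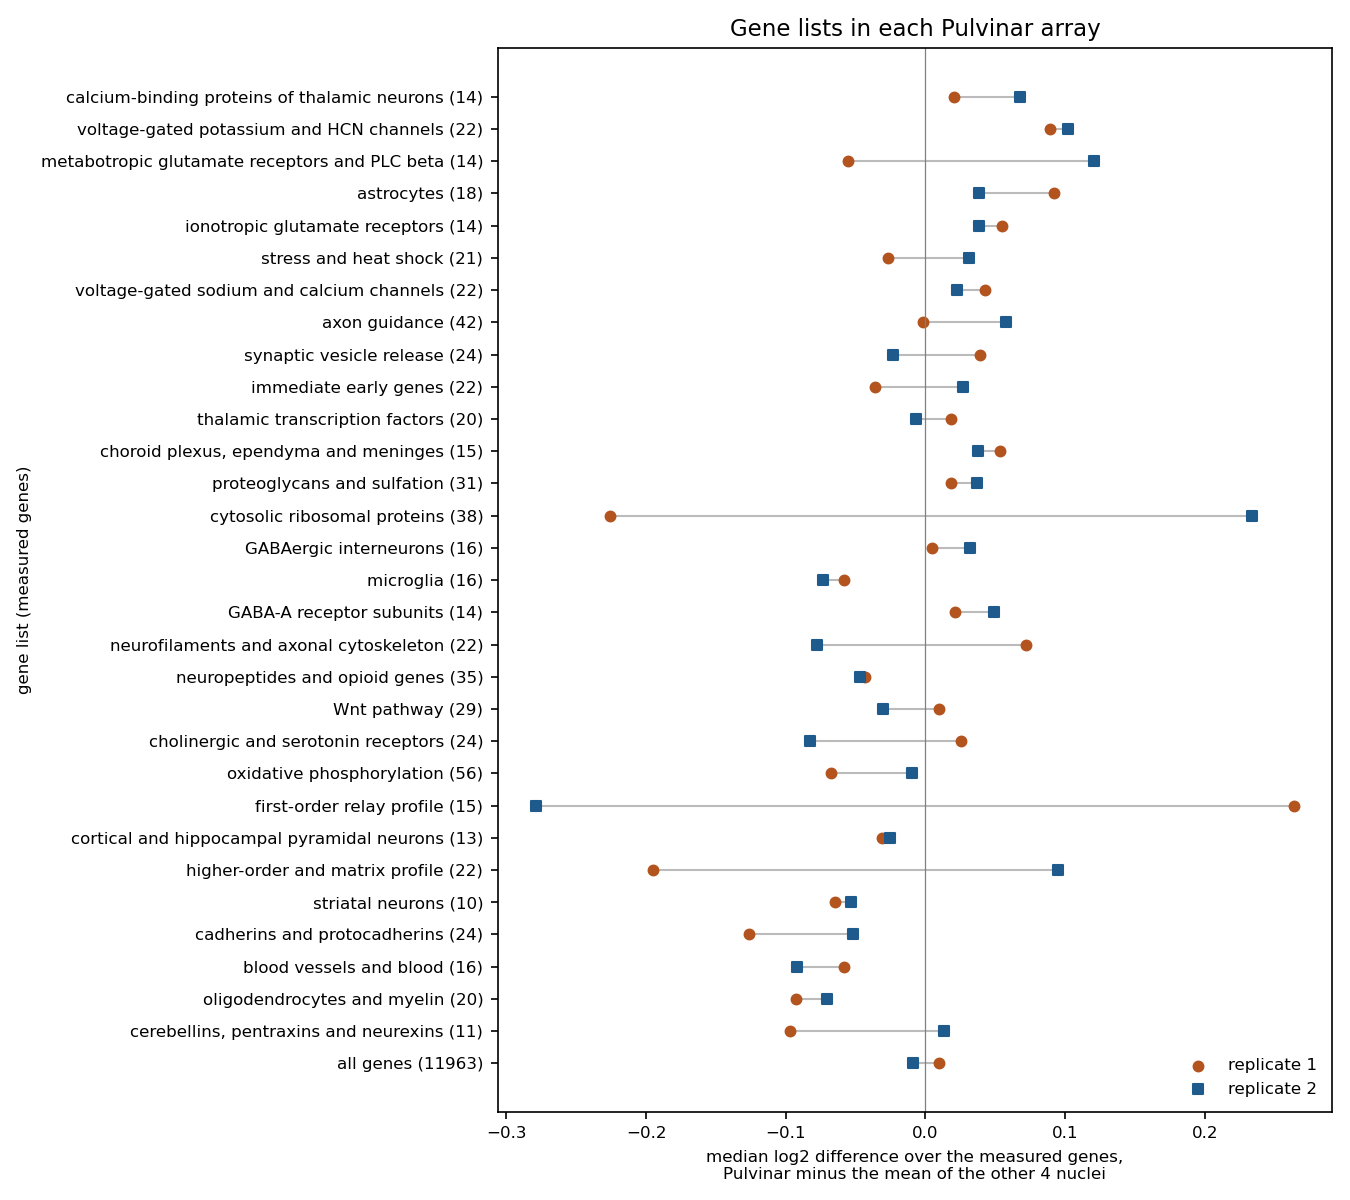
Median log2 difference of Pulvinar from the mean of the other 4 nuclei in replicate 1 (circles) and replicate 2 (squares) for 30 gene lists and all genes, with the number of measured genes in brackets. Potassium and HCN channels lie at 0.0894 and 0.102, myelin genes at -0.093 and -0.0706, and ribosomal proteins and the relay profile on opposite sides of 0 in the 2 replicates.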

How the data were processed

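The deposited values are normalised intensities that the authors computed with RMA (version not given), per the submitters' processing notes, on a linear scale; whether both replicate sets were normalised together is not given in the sources used here. No genome build, detection call or coordinate comes with them. They were analysed as log2(value + 1), a pseudocount of 1, with no filter. Of 22283 probe sets, 68 controls, 2107 not in the platform annotation and 1043 with several genes were left out, and the brightest probe set was kept for each of 4310 genes with several, giving 11963 genes named by human symbols.

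limma 3.58.1 (R 4.3.3) fitted 1 coefficient per nucleus and the replicate number as a block over all 10 arrays, with a variance trend; Benjamini-Hochberg adjustment covered all genes, called under 0.05. The replicate number was used as a block because Pulvinar is compared within it, and the labels state no pairing. All 10 correlations between nuclei of the replicate 2 minus replicate 1 difference exceeded 0.1 (0.758 to 0.831). Any shift shared by a replicate set gives such values, so they do not show that a set comes from 1 animal. Residual degrees of freedom were 4, prior ones 8.66, and the median residual SD was 0.126 (0.22 without the block). The script was tested on simulated data. Named genes were those called against the other 4 nuclei, the 15 concordant genes of largest difference each way, the 3 of smallest p per direct comparison, the concordant or called members and the leading 2 members of each list, the cell type markers, XIST and RPS4Y1. The remaining concordant genes, genes at the edges of the rule and other list members were named after their values were seen. The members of the comparison and the 30 lists were chosen with earlier results of these data known. Alternatives covered the block, pseudocount, normalization, probe set choice, dim genes, the concordance limits and each array left out. Plots used matplotlib 3.10.9 under Python 3.11.15 with numpy 2.4.6.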

Additional observations from a re-analysis of the deposited data

How the results depend on the processing

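The number called against the other 4 nuclei stayed at 0 except with replicate 1 divided by XIST and RPS4Y1 (4) and with single arrays left out (0 to 2: HTR2C without Medial Thalamus replicate 1, NTS and KLF13 without Ventral Thalamus replicate 2, where KLF13 had 0.924 and a limma adjusted p of 0.0442). Without the replicate block, 1 gene was called against Centre Median and 0 against Medial Thalamus. The XIST division called 1 against Anterior Thalamus and 18 against Ventral Thalamus. With the actin covariate, 13 were called against Medial Thalamus and 4 against Ventral Thalamus. Quantile normalization left 7 calls against Centre Median, and testing only genes with a mean log2 level of at least 7 left 3 there and 5 concordantly lower genes. With a pseudocount of 16, concordantly lower genes numbered 8. Leaving out each array gave 0 to 1 called against Anterior Thalamus, 4 to 14 against Centre Median, 0 to 62 against Medial Thalamus (62 without Medial Thalamus replicate 2, 35 without its replicate 1, 0 without Pulvinar replicate 1), 0 to 9 against Ventral Thalamus, and 25 to 45 concordantly higher and 11 to 19 lower genes. At 1.5-fold in both replicates 5 genes were higher and 2 lower, and a stricter limit on the ratio of the replicates left 19 higher. In an alternative chosen after seeing the data, leaving Anterior Thalamus out of the mean gave 44 higher genes (21 of the 29 among them), leaving Ventral Thalamus out gave 63 higher (21 of the 29) and 22 lower (10 of the 14), and leaving Medial Thalamus out gave 22 higher (14 of the 29) and 10 lower (5 of the 14). The SERPINI1 difference from the other 4 nuclei ran from -0.768 (without Pulvinar replicate 2) to 0.0194 (without Pulvinar replicate 1, a reversed sign). The cause was not tested for any of these. Genes whose 2 Pulvinar arrays had opposite signs changed direction with single arrays left out, as CALB1 (-0.435 to 1.18), PVALB (-0.428 to 0.51) and CALB2 (-0.709 to 0.0889) did. Of the 30 list medians, those of potassium channels (0.0674 to 0.146) and myelin (-0.132 to -0.0706) were among several that never changed sign over 17 settings. Others were those of astrocytes (0.032 to 0.126), blood vessels (-0.112 to -0.0368) and cadherins (-0.126 to -0.0187).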

Other observations

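Among the 3150 probe sets without a single annotated gene, 5 were concordantly higher and 2 concordantly lower in Pulvinar by the rule used for genes (0.222%). Among peptide genes outside the concordant set, NMB, the neuromedin B precursor, differed by 0.283 and 0.265 and was highest in Pulvinar in both replicates. SST, the somatostatin precursor, differed by -1.18 and 0.181, and NPY1R, a receptor of neuropeptide Y, by 0.00782 and 0.956, so the larger difference of each was on 1 array. NMB, SST and NPY1R were named after their values were seen.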
